A study of Arabidopsis thaliana with 6 samples.

Results

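The ACC synthases of Arabidopsis thaliana were taken as 9 loci, ACS1, ACS2, ACS4, ACS5, ACS6, ACS7, ACS8, ACS9 and ACS11, out of the 27655 genes in the deposited expression table. They were chosen by locus identifier, with the values of all isoforms of a locus added together, and all 9 were found. RNA-seq had been done on root tips of the sos2-2 mutant (3 samples) and of plants labelled WT (3 samples). Seedlings of both genotypes were 6 days old and had spent 12 hours in liquid medium with 100 mM NaCl. No sample without salt was used here, so a genotype difference that exists without salt cannot be told apart from one that needs it. SOS2 is the protein kinase that, with the calcium sensor SOS3, activates the sodium exporter SOS1. The labels do not describe the lesion of the sos2-2 allele. The series' design text also names gl1, and the sources used here do not say which plants carry it. Nothing in the labels says whether the 3 samples of a genotype were grown separately. The p-values weigh a genotype difference against the spread among these samples only, and that spread could be technical.

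ACC synthase converts S-adenosylmethionine, made from methionine, into 1-aminocyclopropane-1-carboxylic acid (ACC), which ACC oxidase turns into ethylene. It is generally the step that limits ethylene output, and its control is split between transcription of a family of genes and the stability of the proteins. The methylthioadenosine that the reaction releases is returned to methionine by the Yang cycle. The family is divided by the end of the protein. Type I enzymes (ACS1, ACS2, ACS6) carry sites that the mitogen-activated protein kinases MPK3 and MPK6 phosphorylate, which stabilises the enzyme. Type II enzymes (ACS4, ACS5, ACS8, ACS9, ACS11) carry a tail bound by ETO1 and its relatives EOL1 and EOL2, adaptors that send the enzyme to the proteasome. The type III enzyme, ACS7, has neither tail.

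These ends can be read in the last 120 bases of the coding sequences, taken from the RefSeq annotation of TAIR10.1 and shown 5′ to 3′, stop codon included, for the members whose transcripts changed. Capitals mark in-frame codons for serine followed by proline (serine written TCN, AGT or AGC and proline CCN), the core of a mitogen-activated protein kinase site, and for tryptophan followed by valine (TGGGTN), which lies in the type II tail. The tryptophan-valine pair was chosen after the sequences were seen.
ACS2: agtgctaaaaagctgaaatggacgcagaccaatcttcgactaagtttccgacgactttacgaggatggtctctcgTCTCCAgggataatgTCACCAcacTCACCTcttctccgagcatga
ACS6: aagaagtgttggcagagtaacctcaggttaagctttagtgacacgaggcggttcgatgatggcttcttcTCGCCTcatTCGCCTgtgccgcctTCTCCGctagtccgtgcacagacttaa
ACS5: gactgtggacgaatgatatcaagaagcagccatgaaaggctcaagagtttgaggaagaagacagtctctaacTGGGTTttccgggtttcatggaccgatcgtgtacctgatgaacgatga
ACS8: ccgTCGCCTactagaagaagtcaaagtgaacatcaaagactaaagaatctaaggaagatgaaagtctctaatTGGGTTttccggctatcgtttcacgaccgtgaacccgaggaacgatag
ACS11: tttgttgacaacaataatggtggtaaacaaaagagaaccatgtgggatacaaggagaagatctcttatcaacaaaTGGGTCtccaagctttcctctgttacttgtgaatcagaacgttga
ACS7: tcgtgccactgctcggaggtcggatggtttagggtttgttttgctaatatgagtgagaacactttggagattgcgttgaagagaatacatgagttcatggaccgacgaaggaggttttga
Each of the 3 type I genes, ACS1 included, had 3 serine-proline pairs in this window. Each of the 5 type II genes had 1 tryptophan-valine pair, and ACS8 had 1 serine-proline pair as well. ACS7 had neither. Among 27251 coding ends of the same length in the annotation, 14.7% held a serine-proline pair and 2.86% a tryptophan-valine pair. ACS7 was also the shortest coding sequence, with 447 codons, against 495 in ACS6, 496 in ACS2 and 460 in ACS11.

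Among the 9 members, 5 had much more transcript in sos2-2 root tips and 1 had less, while 3 were barely detected in either genotype. The genes higher in sos2-2 covered all 3 types: ACS2 and ACS6 of type I, ACS8 and ACS11 of type II, and ACS7 of type III. ACS7, ACS2, ACS11 and ACS8 were 36.6 to 54.8 times as high in mean TPM, and ACS6, the most abundant member in WT, 5.79 times. ACS5 was the member with less. TPM is a transcript level per length, scaled so that each sample adds up to 1000000. Because it keeps no sequencing depth, no counting error can be attached to single values. These are whole root tips, so a change in the number of cells of a type and in the RNA per cell cannot be told apart.

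Of the type I genes, ACS6 (AT4G11280, chromosome 4, 6863979 to 6866116, plus strand, 4 exons in TAIR10.1) is with ACS2 the best studied substrate of MPK6. It stood at 354, 201 and 337 TPM in sos2-2 and at 47.9, 46.6 and 59.4 TPM in WT. All 3 sos2-2 samples lay far above all 3 WT samples, with sos2-2 replicate 2 the lowest of its genotype. The mean was 297 ± 84.0 TPM in sos2-2 and 51.3 ± 7.0 TPM in WT (SD, n = 3 each). On the log2(TPM + 1) scale ACS6 rose by 2.48 (SE 0.23, limma adjusted p = 9.89e-05).

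ACS2 (AT1G01480, chromosome 1, 175706 to 178406, plus strand, 4 exons) held 328, 133 and 212 TPM in sos2-2, against 3.94, 4.76 and 6.97 TPM in WT. The groups did not overlap, although the sos2-2 samples differed from each other by more than those of any other called member relative to their mean (224.5 ± 98.4 TPM in sos2-2, 5.22 ± 1.57 TPM in WT). The log2 difference was 5.11 (SE 0.33, adjusted p = 2.63e-05). ACS2 was the only member with more than 1 isoform in the table. Isoform 1 carried 328, 131 and 212 TPM in sos2-2 and 3.94, 4.61 and 6.64 TPM in WT. Isoform 2 was listed at 0, 1.90 and 0 TPM in sos2-2 and at 8.85e-06, 0.153 and 0.327 TPM in WT, so the change lay in isoform 1.

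ACS1 (AT3G61510, chromosome 3, 22763495 to 22766010, minus strand, 4 exons), whose protein is inactive as a homodimer, was near the bottom of the scale. It stood at 0.215, 0.354 and 0.0834 TPM in sos2-2 and at 0.0258, 0.209 and 0.239 TPM in WT. The groups overlapped, and with a mean below 1 TPM the gene was not tested.

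Of the type II genes, ACS11 (AT4G08040, chromosome 4, 4886962 to 4889224, plus strand, 4 exons) was the most abundant in both genotypes. It reached 162, 154 and 244 TPM in sos2-2 and 5.69, 4.10 and 4.44 TPM in WT. Every sos2-2 value was above every WT value (mean 187 ± 49.8 TPM in sos2-2, 4.74 ± 0.84 TPM in WT), and the log2 difference was 5.01 (SE 0.20, adjusted p = 5.68e-06).

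ACS8 (AT4G37770, chromosome 4, 17752079 to 17754157, plus strand, 4 exons), a gene known for induction by auxin, had 25.6, 16.5 and 25.7 TPM in sos2-2 and 0.505, 0.459 and 0.888 TPM in WT. The groups were apart (mean 22.6 ± 5.3 TPM in sos2-2, 0.617 ± 0.236 TPM in WT). The log2(TPM + 1) difference of 3.85 (SE 0.21, adjusted p = 1.32e-05) understates the change in a gene so low in WT, where the ratio of means was 36.6. ACS8 met the minimum mean of 1 TPM only through its sos2-2 values, so its place among the called genes is partly set by the filter.

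ACS5 (AT5G65800, chromosome 5, 26330746 to 26332812, minus strand, 3 exons), the gene in which the ethylene overproducing mutation eto2 lies, went the other way. It was listed at 0.0284, 0 and 0 TPM in sos2-2 and stood at 1.31, 1.86 and 1.17 TPM in WT. The groups did not overlap, with every WT sample above 1 TPM and every sos2-2 sample close to 0. Its mean over the 6 samples was below 1 TPM, so it was left out of the test. With no such filter its log2(TPM + 1) difference was -1.27 (SE 0.12, limma adjusted p = 0.000319).

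ACS9 (AT3G49700, chromosome 3, 18434449 to 18436141, minus strand, 4 exons) is the closest relative of ACS5, with 84.3% identical bases over the aligned coding sequence, the highest of the 36 pairs of members. It did not share the pattern of ACS5. ACS9 stood at 0.46, 0.331 and 0.156 TPM in sos2-2 and at 0, 0.196 and 0.179 TPM in WT, groups that overlapped. ACS4 (AT2G22810, chromosome 2, 9717602 to 9719594, minus strand, 4 exons), an auxin-induced gene in seedlings, was listed at 0 in all 6 samples.

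ACS7 (AT4G26200, chromosome 4, 13275200 to 13277188, plus strand, 3 exons), the type III enzyme, is a target of the ubiquitin ligase XBAT32. It rose to 479, 329 and 456 TPM in sos2-2, against 6.96, 7.76 and 8.33 TPM in WT. The groups were far apart, and the WT values were the most even of any detected member (mean 421 ± 80.7 TPM in sos2-2, 7.68 ± 0.69 TPM in WT). The log2 difference was 5.59 (SE 0.16, adjusted p = 2.51e-06).

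**Figure D1:**
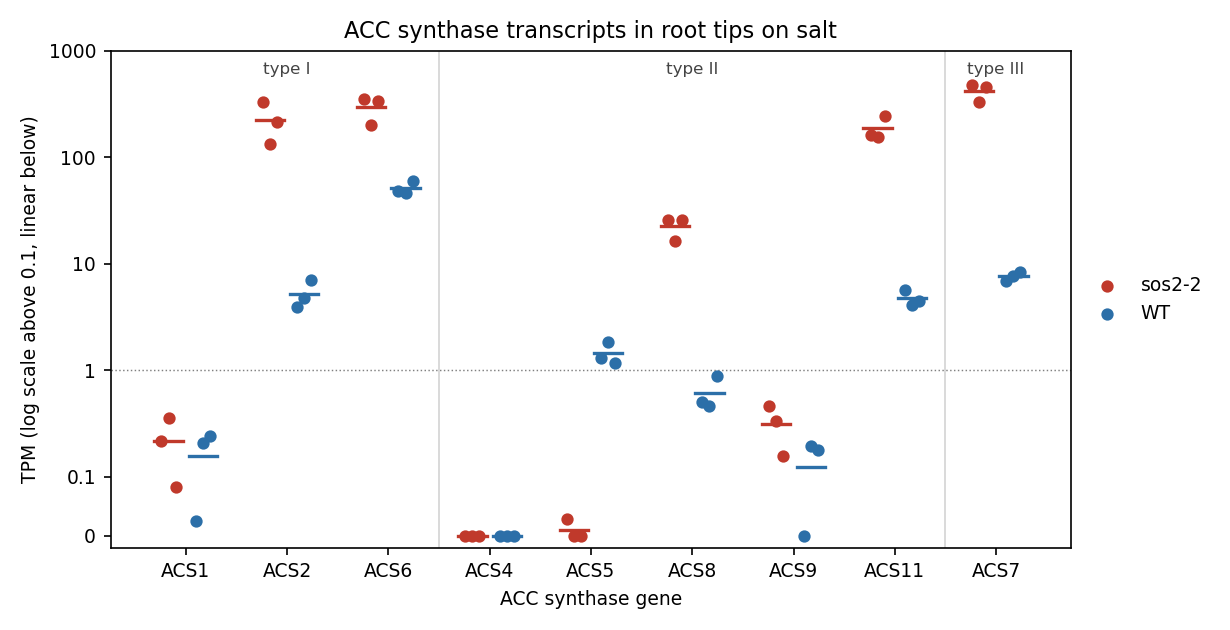
TPM of each ACC synthase gene in the 3 sos2-2 samples (red) and the 3 WT samples (blue), on an axis that is logarithmic above 0.1 TPM and linear below. Points are samples, short lines are means, and the dotted line is the minimum mean of 1 TPM. ACS2, ACS6, ACS7, ACS8 and ACS11 lie higher in sos2-2, ACS5 lies lower, and ACS4 is at 0 throughout.

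Set against the whole transcriptome, these rises were large in a comparison where most genes differed. Of 19527 genes tested, 65.4% were called at an adjusted p under 0.05, 31.3% higher and 34.1% lower in sos2-2, and the median log2 difference was -0.05. In 35% of tested genes every sos2-2 value lay above every WT value, and in 37.1% below, so a gap between the groups is common here. Of the 9 members 5 were tested, and those 5 were called higher and 0 lower. As ACS8 entered the test only through its sos2-2 values, nothing is read from that count. Ranked from the largest rise, ACS7 was in place 55 of 19527, ACS2 in place 79, ACS11 in place 91, ACS8 in place 228 and ACS6 in place 710. The 5 calls held in each of 14 alternative settings, among them the removal of each sample.

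**Figure D2:**
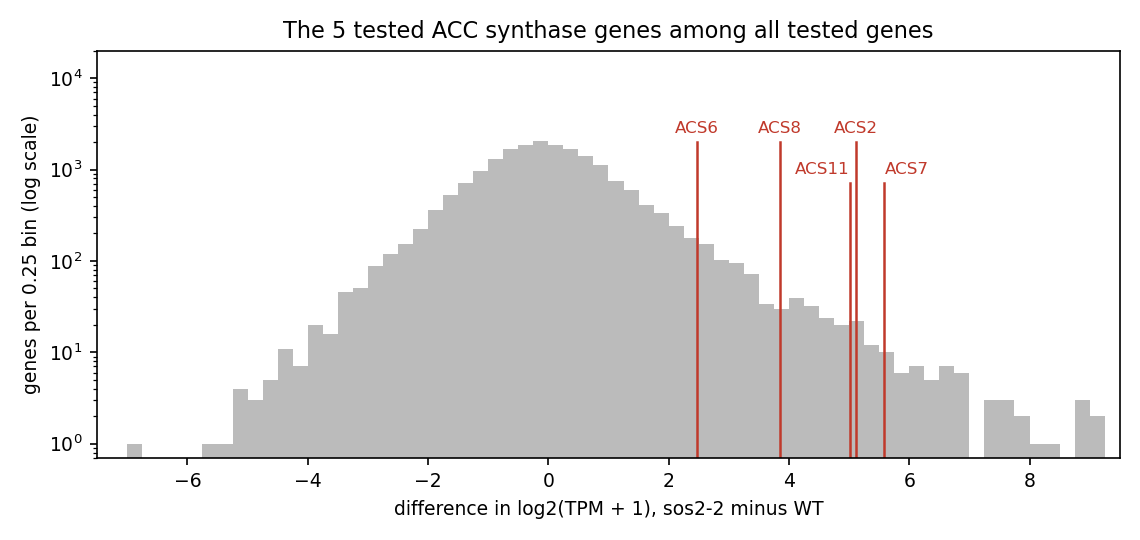
Number of tested genes by their difference in log2(TPM + 1), sos2-2 minus WT, in bins of 0.25, with the count on a log axis. Red lines mark the 5 tested ACC synthase genes, of which ACS2, ACS7 and ACS11 lie above 5 and ACS6 lies at 2.48.

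The order of the members by level differed between the genotypes. In sos2-2 ACS7 came first, followed by ACS6, ACS2 and ACS11, with ACS8 well below. ACS7 was above ACS6, and ACS6 above ACS2, within each of the 3 sos2-2 samples, but the ranges of each neighbouring pair overlapped. ACS2 was above ACS11 in only 1 of the 3 sos2-2 samples. In WT ACS6 came first by a wide margin, followed by ACS7, ACS2, ACS11, ACS5 and ACS8. Among these WT neighbours the ranges of ACS7 and ACS2 and of ACS2 and ACS11 overlapped.

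The summed level of the 9 genes was 1350.0, 833 and 1275 TPM in sos2-2 and 66.4, 66.0 and 81.6 TPM in WT, a ratio of means of 16.2. Sample by sample, sos2-2 replicate 2 was lowest for ACS2, ACS6, ACS7, ACS8 and ACS11 alike, and the ratio was 18.4 without it. Over all tested genes, too, this sample was the nearest of its genotype to WT. Its Pearson r with the WT samples on the log2(TPM + 1) scale was 0.814 to 0.824. That of sos2-2 replicate 1 was 0.726 to 0.73 and that of replicate 3 was 0.768 to 0.78. ACS6 made up 25.6 ± 1.3% of the sum in sos2-2 and 71.9 ± 1.1% in WT (SD, n = 3 each). ACS7 made up 36.9 ± 2.2% in sos2-2 and 10.8 ± 0.8% in WT. By type, type I genes held 44.6 ± 5.4% of the sum in sos2-2 and 79.3 ± 2.0% in WT. Type II genes held 18.5 ± 4.0% in sos2-2 and 9.84 ± 1.57% in WT. Within type II the share of ACS5 fell to at most 0.0021% in sos2-2, against 1.44 to 2.81% in WT, while that of ACS11 was 12.0 to 19.1% in sos2-2 and 5.45 to 8.57% in WT.

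**Figure D3:**
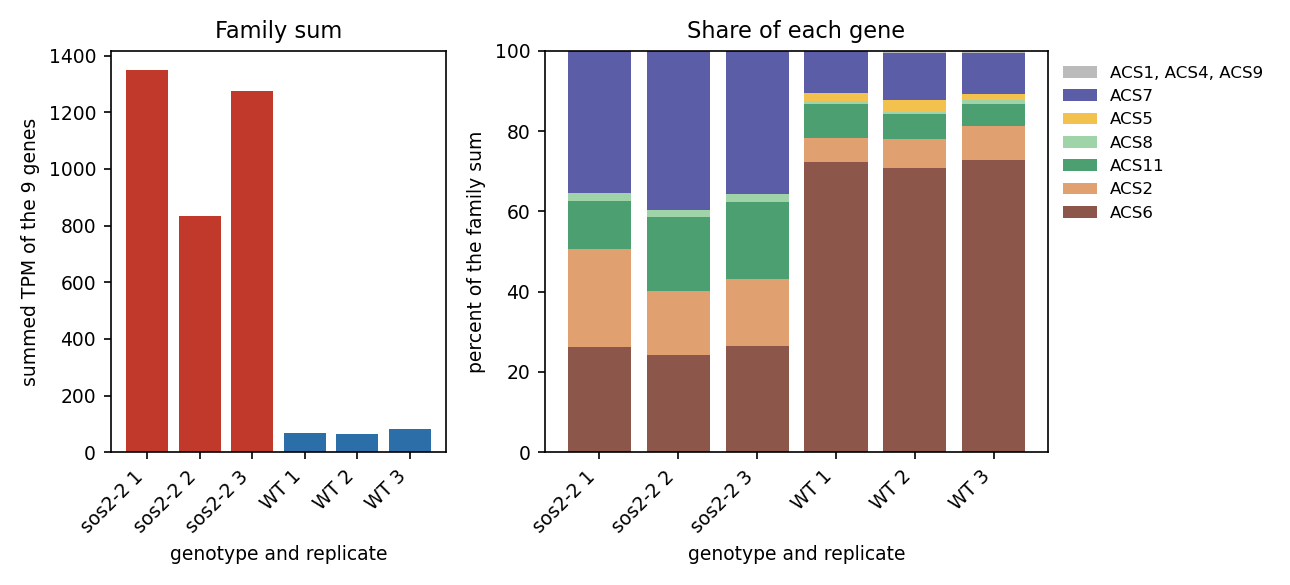
Left, the summed TPM of the 9 ACC synthase genes in each sample, with the sos2-2 samples (833 to 1350.0) in red and the WT samples (66.0 to 81.6) in blue. Right, the percent of that sum held by each gene in each sample, in which ACS6 takes 24.1 to 26.4% in sos2-2 and 70.7 to 72.8% in WT.

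The smaller rise of ACS6 can be followed within samples through the log2 ratio of 2 members, which does not depend on the scaling of a sample. The log2 ratio of ACS6 to ACS7 was -0.44, -0.71 and -0.44 in sos2-2 and 2.79, 2.59 and 2.83 in WT, so ACS7 exceeded ACS6 in every sos2-2 sample and ACS6 exceeded ACS7 in every WT sample. The difference between genotypes was -3.26 (SE 0.12). The ratio of ACS2 to ACS6 differed by 2.87 (SE 0.23), that of ACS6 to ACS8 by -2.73 (SE 0.20) and that of ACS6 to ACS11 by -2.78 (SE 0.31). In none of these pairs did the genotypes overlap. Over the 10 pairs of tested members, each of these had a two-sided exact permutation p = 0.1, the smallest that 3 against 3 samples allow, and an adjusted p = 0.2. ACS8 was among the tested members only through its sos2-2 values, and all its WT values were below 1 TPM. Nothing is therefore read from the tests of pairs that include ACS8. Among ACS2, ACS7 and ACS11 the ratios differed less, by -0.48 to 0.09, and the genotypes overlapped in each pair. The log2 ratio of ACS8 to ACS7 was -4.23, -4.32 and -4.15 in sos2-2 and -3.79, -4.08 and -3.23 in WT. Its WT side rests on ACS8 values below 1 TPM, so nothing is read from the gap between the groups.

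Long identical stretches, from which a read could be given to the wrong gene, were rare within the family. Coding sequences were 61.0 to 84.3% identical over the aligned bases, and only 1 of 36 pairs, ACS6 and ACS7, had any run of 31 identical bases. That run was 32 bases long. No annotated locus overlapped any member. All 4 members on chromosome 4 (ACS6, ACS7, ACS8, ACS11) were among the 5 that rose, with ACS2 on chromosome 1 the other. Over all tested genes 31.3% were called higher, and the share on chromosome 4 was not computed. Nothing is therefore read from these positions.

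The 250 bases upstream of each member were searched on both strands for 7 motifs. The W-box, the site of WRKY factors, was searched as TTGACN, and its core TTGAC reads GTCAA on the other strand. This search leaves the base after the core open, so a match need not be a full W-box. A match was found upstream of 6 of the 9 members and of 4 of the 5 that rose, and 44.9% of 27443 protein-coding genes have a match in the same window. The upstream sequences of 2 rising genes with matches and of ACS2, which rose about as much with none, are shown 5′ to 3′ on the plus strand of TAIR10.1, with the W-box core in capitals.
ACS7, chr4:13274950-13275199: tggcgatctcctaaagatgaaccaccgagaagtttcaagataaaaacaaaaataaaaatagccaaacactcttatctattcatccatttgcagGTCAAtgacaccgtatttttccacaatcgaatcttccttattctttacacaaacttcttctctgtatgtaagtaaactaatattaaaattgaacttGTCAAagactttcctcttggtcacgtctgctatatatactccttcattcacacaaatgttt
ACS11, chr4:4886712-4886961: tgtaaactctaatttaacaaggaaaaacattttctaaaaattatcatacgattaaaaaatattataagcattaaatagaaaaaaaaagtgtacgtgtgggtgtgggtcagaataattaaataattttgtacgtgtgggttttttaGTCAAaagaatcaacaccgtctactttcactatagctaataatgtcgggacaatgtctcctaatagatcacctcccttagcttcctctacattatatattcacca
ACS2, chr1:175456-175705: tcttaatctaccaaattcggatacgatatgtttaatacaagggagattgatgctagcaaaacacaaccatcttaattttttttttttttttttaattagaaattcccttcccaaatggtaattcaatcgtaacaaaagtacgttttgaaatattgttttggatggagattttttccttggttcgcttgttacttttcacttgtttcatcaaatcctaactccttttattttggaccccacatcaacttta
The heat shock core GAANNTTC was found upstream of ACS6 and ACS7 (9.55% of genes). The abscisic acid element ACGTGNC was found upstream of ACS7 and ACS9 (8.57%). The auxin response core TGTCNN was found upstream of 6 members (74.5%), and its matches can overlap those of the W-box. The GCC box GCCGCC (1.87%), the G-box CACGTG (6.49%) and the mitochondrial dysfunction motif (1.75%) had 0 matches in these windows. Matches describe these letters only and say nothing of binding.

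The genes around ACC synthase were described by lists, read beside the 31.3% of all tested genes called higher and the 34.1% called lower in sos2-2. Of the 4 S-adenosylmethionine synthetases, all tested, 3 fell and 1 rose (median log2 difference -1.97). SAM2 stood at 129, 197 and 153 TPM in sos2-2 and at 737, 795 and 791 TPM in WT, a log2 difference of -2.29 (SE 0.16, adjusted p = 3.28e-05). SAM1 differed by -2.01 (SE 0.17, adjusted p = 5.84e-05). The gene that rose, MAT4, which was the most abundant of the 4 in sos2-2, at 971, 798 and 829 TPM in sos2-2 and 651, 475 and 594 TPM in WT, was named after its values were seen. Of the 9 Yang cycle genes, 7 fell, 0 rose and 2 were not called (median -0.76). Among the 7, ARD3 met the minimum mean of 1 TPM only through its WT values, so nothing is read from its call. It was named after its values were seen, 0.136, 0.196 and 0 TPM in sos2-2 and 0.676, 2.97 and 3.83 TPM in WT. With a minimum mean of 5 TPM, 6 genes of the list were called lower. ARD1, an acireductone dioxygenase, had 20.8, 25.4 and 25.5 TPM in sos2-2 and 103, 123 and 108 TPM in WT (log2 difference -2.17, SE 0.13, adjusted p = 1.82e-05). ARD2 fell by 1.48 on the log2 scale (adjusted p = 0.000214).

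ACC oxidases, which act on the product, went both ways, with 2 higher, 1 lower and 2 not called of 5 (median -0.39). ACO3 stood at 10.3, 14.4 and 10.4 TPM in sos2-2 and at 2.88, 3.12 and 2.86 TPM in WT (log2 difference 1.67, SE 0.16, adjusted p = 0.000116). ACO1 was at 2.17, 4.25 and 3.80 TPM in sos2-2 and at 14.2, 32.1 and 23.7 TPM in WT (log2 difference -2.43, SE 0.31, adjusted p = 0.000443). The summed level of the 5 oxidases was 604 to 902 TPM in sos2-2 and 872 to 968 TPM in WT. Without sos2-2 replicate 2, 3 of the list were called lower. ACS10 and ACS12, relatives that are aminotransferases and not ACC synthases, were not called. ACS12 stood at 7.96, 9.52 and 10.1 TPM in sos2-2 and at 10.2, 10.4 and 10.8 TPM in WT (adjusted p = 0.276).

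Of 5 genes that move, conjugate or break down ACC 4 were tested, of which 3 rose and 1 fell (median 0.79). LHT1, an amino acid transporter that also carries ACC, had 393, 431 and 396 TPM in sos2-2 and 154, 188 and 176 TPM in WT (log2 difference 1.23, SE 0.12, adjusted p = 0.000112). GGT1, a gamma-glutamyl transpeptidase linked to a conjugate of ACC, rose by 2.1 (SE 0.22, adjusted p = 0.000163). The smallest call in this list, that of JAR1 (log2 difference 0.34), was named after its values were seen. It was lost in 6 of 14 alternatives, among them the removal of WT replicate 1 or 3 or of sos2-2 replicate 2 or 3 (limma adjusted p = 0.0694 to 0.109). The gene that fell, ACD1, which encodes an enzyme reported to break down ACC, was also named after its values were seen. It stood at 17.9, 23.6 and 18.1 TPM in sos2-2 and at 34.8, 36.7 and 33.1 TPM in WT (log2 difference -0.79, SE 0.14, adjusted p = 0.00158). LHT2, below the filter, was listed at 0.0291, 0.335 and 0.276 TPM in sos2-2 and at 0.465, 0.42 and 0.748 TPM in WT, groups that did not overlap.

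Among 5 genes for turnover of the enzymes, 2 rose, 1 fell and 2 were not called (median 0.02). EOL1 stood at 6.13, 7.24 and 6.00 TPM in sos2-2 and at 14.3, 13.3 and 14.6 TPM in WT (log2 difference -1.02, SE 0.13, adjusted p = 0.000333). ETO1 stood at 38.8, 29.9 and 44.1 TPM in sos2-2 and at 18.8, 17.3 and 18.2 TPM in WT (log2 difference 1.00, SE 0.15, adjusted p = 0.000897). These 2 adaptors moved in opposite directions. EOL2, the other gene that rose, was no longer called when sos2-2 replicate 3 was left out (adjusted p = 0.0538), nor when WT replicate 2 was (adjusted p = 0.0603), and 1 gene of the list was then higher.

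The next list holds kinases that act on ACC synthases, kinases upstream of MPK3 and MPK6, and the factor WRKY33. Of its 8 members 5 rose, 1 fell and 2 were not called (median 0.77). WRKY33, which binds the ACS2 and ACS6 promoters, stood at 1280.5, 751 and 1291 TPM in sos2-2 and at 100.0, 131 and 101 TPM in WT (log2 difference 3.28, SE 0.23, adjusted p = 3.49e-05). MKK9, a kinase upstream of MPK3 and MPK6, had 136, 99.5 and 186 TPM in sos2-2 and 11.9, 14.2 and 14.9 TPM in WT (log2 difference 3.23, SE 0.22, adjusted p = 3.25e-05). MPK6 itself, named after its values were seen, was at 75.0, 70.2 and 64.9 TPM in sos2-2 and at 70.5, 73.0 and 74.4 TPM in WT (adjusted p = 0.682).

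Downstream, among 12 receptors and core signalling genes, 5 rose, 4 fell and 3 were not called (median 0.33). EIL1, a transcription factor of the pathway, had 108, 102 and 115 TPM in sos2-2 and 53.1, 51.1 and 50.2 TPM in WT (log2 difference 1.06, SE 0.10, adjusted p = 0.000119). The receptor ERS2 rose by 1.02 (SE 0.14, adjusted p = 0.000557). Of 10 ethylene response genes 8 were tested, of which 2 rose and 2 fell (median -0.39). ERF1 stood at 51.5, 58.8 and 89.7 TPM in sos2-2 and at 5.77, 5.86 and 5.03 TPM in WT (log2 difference 3.33, SE 0.20, adjusted p = 2.07e-05). ARL, an ARGOS-like gene, rose by 1.44 (SE 0.22, adjusted p = 0.00104). Without both WT replicate 1 and sos2-2 replicate 2, PR3 and TAA1 were called as well, which makes 4 of these response genes lower. Of the 60 genes in the 9 lists outside the family 57 were tested, of which 20 were called higher and 20 lower. That is 35.1% each way, near the 31.3% higher and 34.1% lower of all tested genes.

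**Figure D4:**
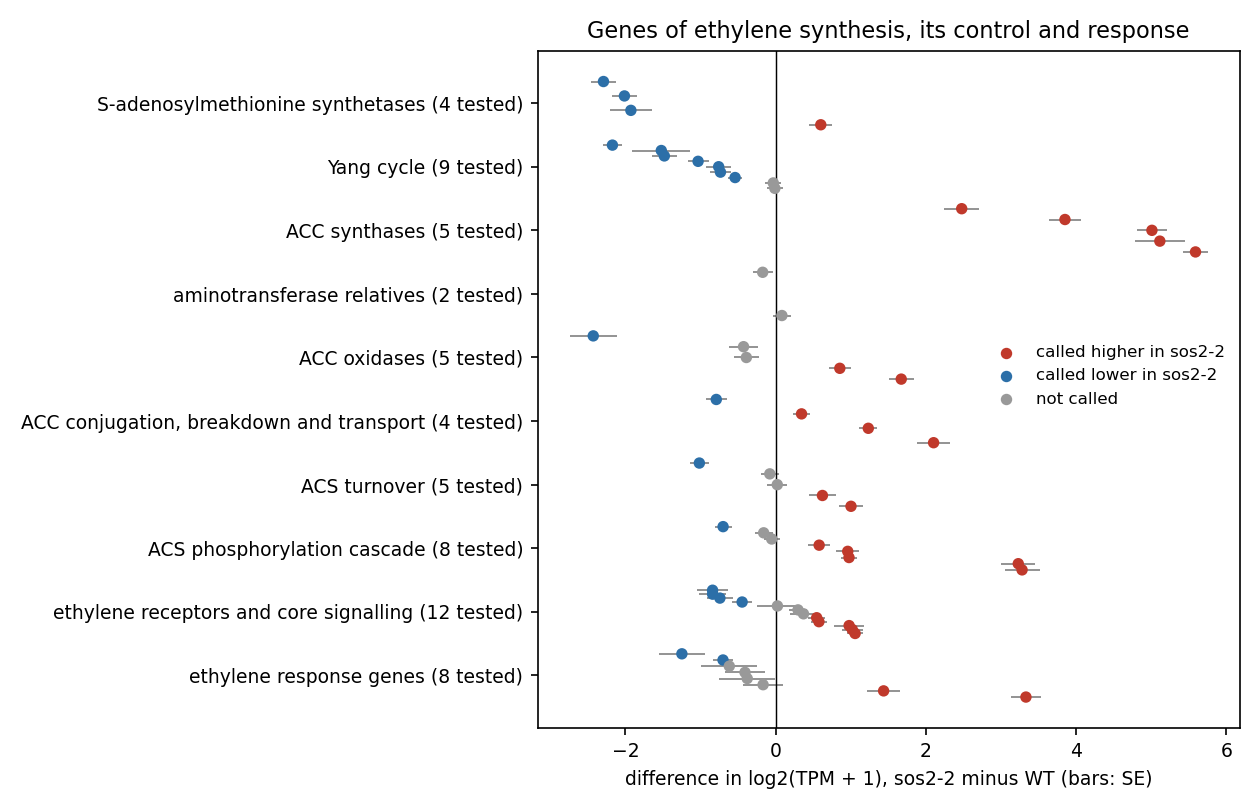
Difference in log2(TPM + 1), sos2-2 minus WT, of every tested gene in the 10 lists, from substrate supply at the top to ethylene response at the bottom. Points are genes, bars are standard errors, and colours give the call. The 5 tested ACC synthases lie between 2.48 and 5.59, while 3 of the 4 S-adenosylmethionine synthetases lie at or below -1.93.

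The genes whose profile across the 6 samples was most like that of ACS7, the member with the highest mean, were found from the root mean square difference of log2(TPM + 1) after each gene's own mean was subtracted. With genotype the main source of variation, this measure mostly ranks genes by the size of their genotype difference. The nearest was EXO, an EXORDIUM gene (distance 0.085), at 1971, 1470 and 2186 TPM in sos2-2 and 33.6, 41.8 and 40.1 TPM in WT. Next came AOX1A, the alternative oxidase of mitochondria (0.095), and BCS1 (0.11), at 1773, 1120 and 1641 TPM in sos2-2 and 27.7, 37.1 and 34.3 TPM in WT. The phospholipase gene AT4G16820 (0.15) and PLA2A, a patatin-related phospholipase (0.20), completed the first 5 genes with a symbol. Within the family ACS2 was in place 33 (0.36) and ACS11 in place 43 (0.39) of all tested genes, against place 676 for ACS6 (1.56).

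The libraries also differed in ways that move with genotype. SOS2 was at 22.0, 10.2 and 14.3 TPM in sos2-2 and at 4.99, 5.81 and 5.44 TPM in WT (log2 difference 1.3, limma adjusted p = 0.00289), while SOS3 was at 70.4, 70.1 and 70.9 TPM in sos2-2 and at 22.5, 24.3 and 22.3 TPM in WT. SOS1 averaged 12.9 TPM in sos2-2 and 12.5 TPM in WT (limma adjusted p = 0.805), and GL1 was listed at 0 in all 6 samples. The marker counts that follow are to be read beside the 31.3% of all tested genes called higher and the 34.1% called lower. The 10 root tip markers were all detected, 4 called higher and 0 lower in sos2-2. Their sums were 247 to 280.2 TPM in sos2-2 and 131 to 153 TPM in WT. WER, picked after its values were seen, averaged 114 TPM in sos2-2 and 34.3 TPM in WT. The 6 root tip markers not called included PLT1, PLT2, WOX5, SCR and SHR, also picked after their values were seen. Of 4 root hair markers 3 fell and 1 rose, with sums of 296 to 385 TPM in sos2-2 and 1288 to 1695 TPM in WT. Most of the WT sum was PRP3, named after its values were seen, which averaged 137 TPM in sos2-2 and 1157 TPM in WT. Of 7 endodermis markers 6 fell and 1 rose, with sums of 137 to 359 TPM in sos2-2 and 695 to 888 TPM in WT. Xylem markers, 2 of 3 lower, summed to 71.0 to 89.1 TPM in sos2-2 and 99.3 to 121 TPM in WT. Phloem markers, 1 of 3 higher, summed to 42.2 to 59.7 TPM in sos2-2 and 18.5 to 35.9 TPM in WT. Of 5 shoot photosynthesis markers 3 were tested, of which 2 fell and 1 was not called. Sums of all 5 were 55.7 to 66.1 TPM in sos2-2 and 56.6 to 70.6 TPM in WT. The untested CA1 and LHCB1.1, below the filter, were named after their values were seen. Every CA1 value in sos2-2 was above every WT value, and with no filter CA1 differed by 0.748 (limma adjusted p = 0.00291). LHCB1.1, whose groups overlapped, differed by -0.137 with no filter (limma adjusted p = 0.254). Calls of the xylem markers IRX3 and XCP1, the endodermis markers CASP4, CASP5 and ESB1 and the photosynthesis gene RBCS1A were lost when single samples were left out. Each WT replicate and sos2-2 replicates 1 and 3 ended at least 1 of these calls (limma adjusted p = 0.05 to 0.13). The locus AT2G01021 alone held 3.66% of all TPM in sos2-2 replicate 2 and 5.56% in WT replicate 1. Without WT replicate 1, without sos2-2 replicate 2 and without both, the 5 ACC synthases were still called higher. The part of the marker differences in the levels of the ACC synthases was not tested.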

How the data were processed

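The authors deposited 1 table of TPM per transcript isoform for the 6 root tip samples. That the values are TPM was inferred from their sums, 1000000 in each sample. The submitters' processing notes list kallisto 0.46.2, sleuth 0.30.0 and TAIR10 without saying how each was used. No annotation release, filter, strand setting or sequencing depth was found in the labels or the table.

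Values of 48359 isoforms were added up to 27655 genes, of which 27445 had an entry in RefSeq's TAIR10.1, the source of names, positions and sequences. Genes averaging 1 TPM or more (19527) entered a limma fit (version 3.58.1, R 4.3.3) of log2(TPM + 1) with genotype as the only term, trended and robust variances and Benjamini-Hochberg adjustment over all of them. An adjusted p under 0.05 was a call. Differences are sos2-2 minus WT, and fold values are ratios of mean TPM. The fit was run on simulated data in which 200 genes were changed. It recovered 6% of changes of 0.5 on the log2 scale, 60% of changes of 1, 84% of 2 and 100% of 3. Far more genes differ in the real data, so the simulation does not show how the fit behaves there. Pairs of members were compared by their log2 ratio within each sample with a two-sided exact permutation test.

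The members and the gene lists were chosen with earlier results of these data known. The reference gave the listed name for 104 of 105 list entries, the other being ACO3. Besides the 9 members, SOS1, SOS2, SOS3 and GL1, the text names from each pathway list the 2 called genes with the smallest p (1 gene where fewer than 3 were called), and the 5 genes with a symbol nearest in profile to the member of highest mean. Other genes are marked where they appear or are given only as changed calls. Alternatives changed the filter, the pseudocount, the scaling, the samples or the replicate block. A count test was not run, since the table holds no counts. Coding sequences were aligned and figures drawn in Python 3.11.15. Columns of other samples numbered 0.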

Additional observations from a re-analysis of the deposited data

How the results depend on the processing

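The calls of ACS2, ACS6, ACS7, ACS8 and ACS11 and the counts of all genes and of genes over the 9 pathway lists called stayed within 1.5 times their values in all 14 alternatives, of which quantile normalization and the removal of both WT replicate 1 and sos2-2 replicate 2 were chosen after seeing the data. With no filter 1 member, ACS5, was called lower, against 0, because the filter had left it untested. The log2 difference of ACS8 ranged from 2.28 with a pseudocount of 5 to 5.00 with 0.1, and the ACS8 ratio of mean TPM was 46.9 without WT replicate 3. The ratio of family sums was 14.8 to 18.4 when single samples were left out. TMM-type factors moved the median of all genes to -0.002. Same-numbered samples deviated together only weakly (r of 0.177, 0.050 and 0.058), so no pairing by number was evident. With 3 samples per genotype these values cannot show that pairing was absent. The replicate block gave 6011 genes higher and 6536 lower, against 6115 and 6665, and called the same 5 members. TPM gives no counting error, so low members such as ACS1 and ACS9 cannot be ranked.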

Other observations

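The protein-coding genes beside the members were also measured. Of the 18 neighbours 13 were tested, of which 5 were called higher and 4 lower in sos2-2. Over all tested genes 31.3% were called higher and 34.1% lower, so nothing is read from the counts of neighbours. Among the 8 tested neighbours of the 5 members that rose, 3 rose, 2 fell and 3 were not called. Beside ACS5, ACS8 and ACS9 lie MYB68, MYB87 and MYB84, which encode MYB transcription factors and were named after their values were seen. All 3 rose, by 2.56, 2.95 and 2.99 on the log2(TPM + 1) scale (limma adjusted p = 7.17e-06, 7.45e-05 and 2.19e-05), while the ACC synthase gene beside each was lower, higher and near 0 TPM in both genotypes, in that order. The gaps between the genes of these pairs are 6136, 4074 and 5167 bases in TAIR10.1. LEA14, a late embryogenesis abundant gene next to ACS2 and also chosen after its values were seen, fell by 2.83 on that scale (limma adjusted p = 0.000131).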
